A study of Mus musculus with 6 samples.

Results

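The alcohol and aldehyde dehydrogenases described here are 10 genes, chosen by their symbols in the table of counts: the alcohol dehydrogenases Adh1, Adh4 and Adh5 and the aldehyde dehydrogenases Aldh1a1, Aldh1a2, Aldh1a3, Aldh1a7, Aldh2, Aldh3a1 and Aldh3a2. They are 10 of the 52459 genes counted, and 9 of them were among the 17032 genes with enough counts to be tested. RNA-Seq was performed on the livers of 6 male Alb-Cre/Cas9 F1 mice on the C57BL6J strain, 3 given a control guide RNA (sgCtrl, mice 5.1, 7.1 and 7.2) and 3 given a guide RNA against Prdx2, a peroxide-reducing enzyme (sgPrdx2, mice 1.1, 1.3 and 3.2). All 6 mice received their guide in an AAV8 vector at 4 to 5 weeks of age, the liver carcinogen DEN (diethylnitrosamine, 100 mg/kg) 3 weeks later and then CDAHFD, a high-fat diet that lacks choline, for 6 months. The livers were taken at an age of 8 months. The paper describes the targeting of Prdx2 in hepatocytes as the joint result of Cas9 that depends on Cre and AAV8 delivery of the guide. RNA, in contrast, came from whole liver with all its cell types, and no group without DEN and diet was included.

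Alcohol dehydrogenases oxidize alcohols to aldehydes with NAD as the electron acceptor, and aldehyde dehydrogenases oxidize the aldehydes to acids. In hepatocytes, where both families are abundant, this chain clears ethanol through acetaldehyde to acetate, disposes of formaldehyde bound to glutathione, and removes the reactive aldehydes that arise when lipids are oxidized. The same chemistry turns retinol into retinaldehyde and then into retinoic acid, a ligand of nuclear receptors.

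Total counts were 37462102 to 56865293 per liver, and the 10 genes took 0.564% to 0.712% of all counts in the sgCtrl and 0.68% to 0.783% in the sgPrdx2 livers. Across all genes, 567 of 17032 (3.33%) had an adjusted p under 0.05 in edgeR's quasi-likelihood test, with 305 (1.79%) higher and 262 (1.54%) lower in sgPrdx2 livers. Prdx2 RNA did not tell the groups apart (119.3 and 120 mean CPM, adjusted p = 0.983). The paper reports by tissue staining that PRDX2 protein was suppressed in hepatocytes, apart from positive islets that it calls most likely nontransduced. Why the RNA did not differ was not tested. The first principal component (50.1% of the variance) separated the groups, and sgPrdx2 liver 3.2 lay farthest from the other sgPrdx2 livers (44.3, against 10.2 and 17.2). All 12 hepatocyte markers were detected in every liver, with albumin alone at 6.61% to 7.01% of counts in sgCtrl and 9.28% to 11.3% in sgPrdx2 livers.

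All levels below are CPM, the counts scaled to library size after TMM normalization, unless counts are named. Fold changes are sgPrdx2 over sgCtrl, and adjusted p (Benjamini-Hochberg over the 17032 genes) are from the quasi-likelihood fit of edgeR unless another tool is named. None of the 9 tested dehydrogenases had an adjusted p under 0.05. The unadjusted p was under 0.05 for 5 of them, against 4241 of all 17032 genes. DESeq2 called 4, namely Adh1, Adh4, Adh5 and Aldh2, against 2066 of 14799 genes. Without sgPrdx2 liver 3.2, edgeR again called none. Adh1, Adh4, Adh5 and Aldh2 were also the 4 of 9 genes whose groups did not overlap, with every sgPrdx2 liver above every sgCtrl liver. Of all genes, 34.2% were without overlap, 16.7% higher and 17.5% lower. The median log2 fold change of the 9 genes was 0.18, and that of all genes was -0.02. The median of the tested members ranged from 0.02 to 0.43 when each liver was left out. It was lowest without sgPrdx2 liver 1.1, with 9 members tested. It was highest without sgCtrl liver 7.1, where Aldh3a1 was also tested, so that this median is of 10 genes. With libraries scaled to 6 housekeeping genes, the median of the 9 genes was -0.19. In whole liver, a change in the number of cells of a type and a change in RNA per cell cannot be told apart.

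In the mouse genome (GRCm38), several of these genes are neighbours. Adh1 (chr3:138260991-138290698), Adh4 (chr3:138415466-138430892) and Adh5 (chr3:138443093-138455499) lie in this order on the plus strand of chromosome 3. On chromosome 19, Aldh1a1 (chr19:20492715-20643465, plus strand) and Aldh1a7 (chr19:20692953-20727562, minus strand) face each other. Aldh3a1 (chr11:61207537-61218421, plus strand) and Aldh3a2 (chr11:61223417-61267464, minus strand) form another neighbouring pair. Aldh2 (chr5:121566027-121593824, minus strand), Aldh1a2 (chr9:71215789-71296243, plus strand) and Aldh1a3 (chr7:66390890-66427517, minus strand) stand apart from the other members.

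Promoter sequences were found in the RefSeq table (GRCm38.p6) for 7 of the 10 genes, with 2 starts each for Adh5 and Aldh1a1, of which the start farther downstream was used. Of these, 4 are shown, each as the bases from 100 to 11 before the transcription start, where no annotated exon lies. No promoter was found there for Aldh2, Aldh1a3 and Aldh3a1, and a link between promoter sequence and the group differences was not tested. Aldh1a1 and Aldh1a7 are shown because their promoters are alike over these bases. The groups of both genes overlapped, as did those of Aldh1a2, Aldh1a3 and Aldh3a2. In the pair of Aldh1a1 and Aldh1a7, capitals mark the positions at which the sequences differ. Aldh1a1 is at chr19:20601868-20601957 (plus strand) and Aldh1a7 at chr19:20727567-20727656 (minus strand), each written 5′ to 3′ on its own strand.
Aldh1a1: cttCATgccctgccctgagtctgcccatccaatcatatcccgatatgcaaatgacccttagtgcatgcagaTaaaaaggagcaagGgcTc
Aldh1a7: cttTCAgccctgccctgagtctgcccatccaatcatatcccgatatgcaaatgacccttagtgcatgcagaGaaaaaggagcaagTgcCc
They were identical at 84 of 90 bases (93.3%) without gaps, whereas over the 250 bases before each start 129 were identical in an ungapped comparison. Both hold the letters CCAAT, a sequence bound by the factor NF-Y in many promoters, 72 bases before the start.

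Adh5, a gene expressed in most tissues, and Aldh1a2, which was at a low level in these livers, are shown for contrast. Here capitals mark the letters CCGCCC (the reverse of GGGCGG, the GC box) and CCAAT. Adh5 is at chr3:138442993-138443082 and Aldh1a2 at chr9:71215689-71215778, both on the plus strand.
Adh5: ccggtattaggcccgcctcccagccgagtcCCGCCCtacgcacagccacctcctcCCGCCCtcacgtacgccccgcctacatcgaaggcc
Aldh1a2: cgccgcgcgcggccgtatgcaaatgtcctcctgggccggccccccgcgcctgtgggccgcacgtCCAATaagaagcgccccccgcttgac
The Adh5 promoter at this start held GC boxes at 108, 70 and 45 bases before the start, the farthest of them outside the stretch shown, and Aldh1a2 held CCAAT at 36. The promoter at the other Adh5 start (position 138437200) held no GC box. In 250 bases before the start and on either strand, 32.7% of 32851 promoters in the table held GGGCGG and 33.8% held CCAAT, so both are common, and a match is only a description of the letters.

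**Figure D1:**
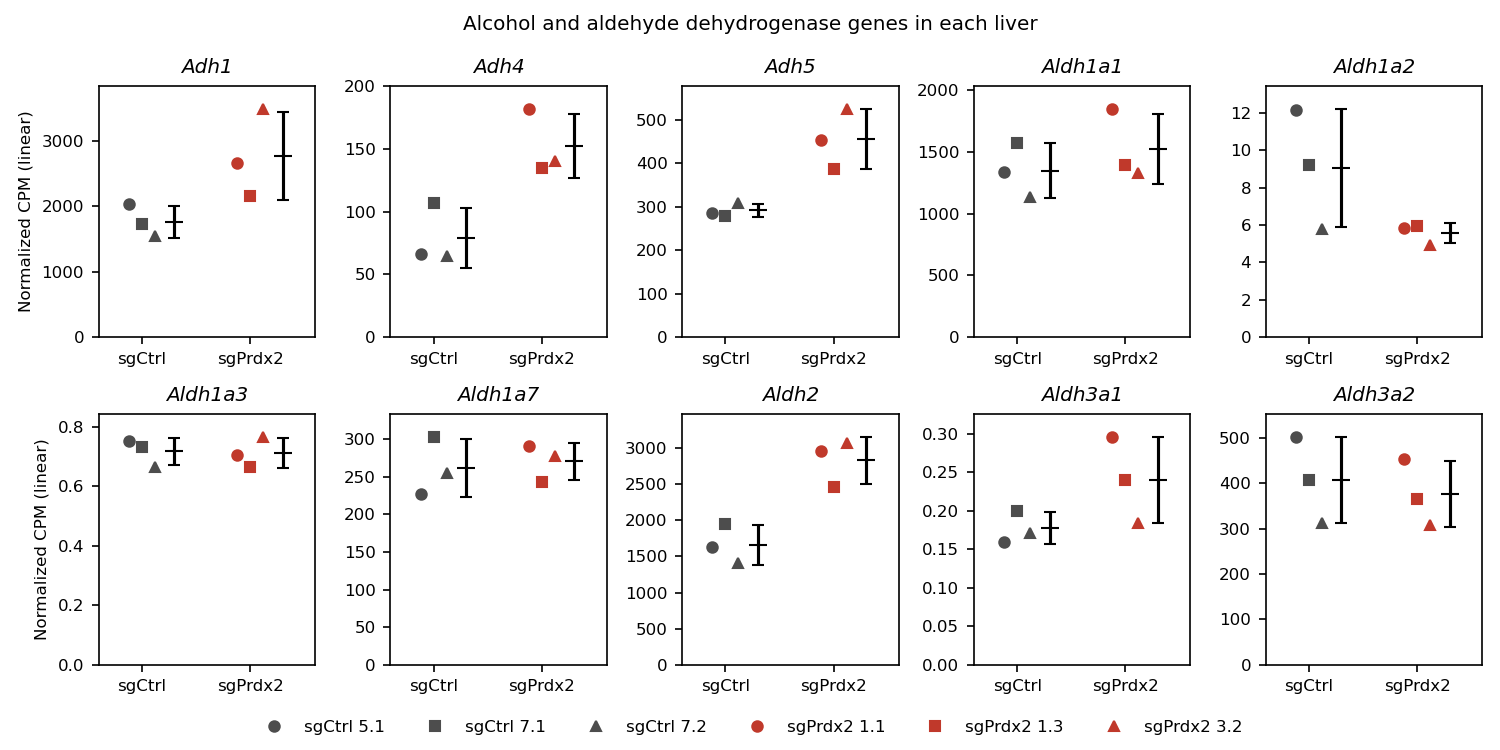
Normalized CPM (linear axes from 0) of the 10 dehydrogenase genes in each of 3 sgCtrl (grey) and 3 sgPrdx2 (red) livers, with the mean and SD of each group as a black bar. The groups of Adh1, Adh4, Adh5 and Aldh2 do not overlap, and those of the other tested genes do.

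Among the alcohol dehydrogenases, Adh1 encodes the main cytosolic enzyme that oxidizes ethanol and retinol in liver. It was at 2025, 1722 and 1539 CPM in sgCtrl livers 5.1, 7.1 and 7.2 and at 2664, 2153 and 3485 CPM in sgPrdx2 livers 1.1, 1.3 and 3.2. The lowest sgPrdx2 liver was just above the highest sgCtrl liver, and liver 3.2 stood above all others. The means were 1762 ± 245.6 and 2768 ± 672 CPM (SD, n = 3 each). On the log2 scale Adh1 differed by 0.65 with a standard error of 0.22, and the adjusted p was 0.123. Without liver 3.2 the log2 fold change of Adh1 was 0.46. Adh1 shares 136 bases of exon with Gm16559, an antisense gene counted at most 6 times per liver.

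Adh4 encodes a hepatic enzyme that accepts larger alcohols and retinol as well as ethanol. It was at 66.5, 106.6 and 64.57 CPM in sgCtrl and at 181.9, 134.7 and 140.3 CPM in sgPrdx2 livers, so that all sgPrdx2 livers were above the highest sgCtrl liver, 7.1. From 79.22 ± 23.72 to 152.3 ± 25.78 CPM (SD, n = 3 each), its log2 fold change of 0.94 (standard error 0.23) was the highest of the 9 genes, and the adjusted p was 0.0643. Its fold was 1.92, with a 95% interval from 1.33 to 2.77. Adh4 passed the threshold once sgCtrl liver 7.1 was left out, at a log2 fold change of 1.22 and an adjusted p of 0.0384, in a range from 0.00209 to 0.195 over 12 alternatives.

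Adh5 encodes the glutathione-dependent formaldehyde dehydrogenase, which also reduces S-nitrosoglutathione. Its levels were 285.7, 279.7 and 309.6 CPM in sgCtrl and 453.8, 387.5 and 525.5 CPM in sgPrdx2 livers. The sgCtrl livers lay close together (291.7 ± 15.83 CPM, SD, n = 3), and every sgPrdx2 liver lay above them (455.6 ± 69 CPM, SD, n = 3). The adjusted p was 0.0648, for a log2 difference of 0.64 (standard error 0.16) or a fold of 1.56 with a 95% interval from 1.22 to 2.01.

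Aldh2, the mitochondrial enzyme that oxidizes acetaldehyde after ethanol intake, was at 1629, 1946 and 1402 CPM in sgCtrl and at 2959, 2456 and 3071 CPM in sgPrdx2 livers. Again no sgPrdx2 liver reached down to the range of the sgCtrl livers. The means were 1659 ± 273.3 and 2829 ± 327.4 CPM (SD, n = 3 each), with a log2 fold change of 0.77 (standard error 0.18) and an adjusted p of 0.0611, the smallest of the 9 genes. DESeq2 gave Aldh2 an adjusted p of 0.000803, in a range of 0.000803 to 0.197 over 12 alternatives. Aldh2 shares 130 bases of exon with the antisense gene Gm42879, which had 41 to 88 counts per liver.

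For Adh1, Adh4, Adh5 and Aldh2, the exact two-sided permutation test on CPM gave p = 0.1, the smallest that 3 livers against 3 allow. Their log2 fold changes stayed above 0 under all 12 alternatives, with lowest values of 0.25, 0.57, 0.26 and 0.38, each reached when libraries were scaled to 6 housekeeping genes. That scaling lowered the median of all genes by 0.37 on the log2 scale, to -0.38, and it left 4 of the 9 dehydrogenases above 0. With TMM, 5 of the 6 housekeeping genes were themselves higher in sgPrdx2 livers and 1 was lower (median log2 fold change 0.43). None of the 6 was called by edgeR, and DESeq2 called 3 as higher, against 1168 of 14799 genes.

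The aldehyde dehydrogenases that make retinoic acid had overlapping groups. Aldh1a1, a cytosolic retinaldehyde dehydrogenase of hepatocytes, was at 1335, 1576 and 1131 CPM in sgCtrl and at 1849, 1398 and 1326 CPM in sgPrdx2 livers. Only liver 1.1 lay above the sgCtrl range. The groups differed by 0.18 on the log2 scale, with a standard error of 0.20 and an adjusted p of 0.602, and the 95% interval of the fold was 0.825 to 1.55. For Aldh2 the fold was 1.71, with an interval of 1.27 to 2.29.

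Aldh1a7, a rodent gene closely related to Aldh1a1, was at 226.9, 303.1 and 254.6 CPM in sgCtrl and at 290.1, 242.9 and 277.6 CPM in sgPrdx2 livers. The sgPrdx2 livers all fell inside the sgCtrl range. The difference was 0.05 on the log2 scale (standard error 0.16), with an adjusted p of 0.871 and a 95% interval of the fold from 0.802 to 1.33. The transcripts are related as well as the promoters shown above: 7.49% of the 50-base stretches of Aldh1a7 and 3.06% of those of Aldh1a1 also occur in the other gene, and how reads from them were counted is not given in the sources used here.

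Aldh1a2, a retinaldehyde dehydrogenase of mesenchymal and mesothelial cells, was at 12.13, 9.186 and 5.803 CPM in sgCtrl and at 5.856, 5.917 and 4.945 CPM in sgPrdx2 livers. Its log2 fold change of -0.69 had a standard error of 0.26 and an adjusted p of 0.157 in edgeR, and Aldh1a2 was the one tested member that was negative with an unadjusted p under 0.05. The groups overlapped, since sgCtrl liver 7.2 lay among the sgPrdx2 livers, and without sgCtrl liver 5.1, the highest, the log2 fold change was -0.42. Of 12 markers of stellate cells and fibroblasts, 10 were also lower and 2 were higher in sgPrdx2 livers (median log2 fold change -0.45). Their summed level was 2363 to 2714 CPM in sgCtrl and 1747 to 1829 CPM in sgPrdx2 livers. The matrix genes Col3a1, Dcn, Col1a2 and Col1a1 were the highest in this sum (-0.63, -0.47, -0.67 and -0.50). Des, Reln, Colec11 and Pdgfrb were near 0 (0.03, 0.15, -0.01 and -0.11), and Hgf and Acta2 were at -0.91 and -1.49. Relative to the geometric mean of these 12 markers within each liver, Aldh1a2 differed by -0.19 on the log2 scale (standard error 0.32, exact permutation p = 0.7). Of the mesothelial markers 4 of 5 tested were lower, at a summed level of 10.19 to 20.63 CPM in sgCtrl and 9.613 to 13.72 CPM in sgPrdx2 livers. What part these cells had in the Aldh1a2 values was not tested.

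Aldh1a3, the retinaldehyde dehydrogenase of epithelia, was at a low level in these livers, at 0.6659 to 0.7539 CPM in sgCtrl and 0.6657 to 0.7678 CPM in sgPrdx2 livers. The groups differed by -0.01 on the log2 scale (standard error 0.24), with an adjusted p of 0.98. With 25 to 36 counts per liver, the 95% interval of its fold ran from 0.674 to 1.46.

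Of the enzymes for fatty and aromatic aldehydes, Aldh3a2, the fatty aldehyde dehydrogenase of the endoplasmic reticulum, was at 502.6, 406.1 and 312.5 CPM in sgCtrl and at 452.9, 366.1 and 308.6 CPM in sgPrdx2 livers. The values of the groups interleaved, with a difference of -0.12 on the log2 scale, a standard error of 0.22, an adjusted p of 0.768 and a 95% interval of the fold from 0.65 to 1.31. Its neighbour Aldh3a1, an enzyme of cornea and stomach that is inducible through the Ah receptor, was counted 7, 9 and 9 times in sgCtrl and 13, 13 and 6 times in sgPrdx2 livers. These 57 counts in all were too few for the test.

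**Figure D2:**
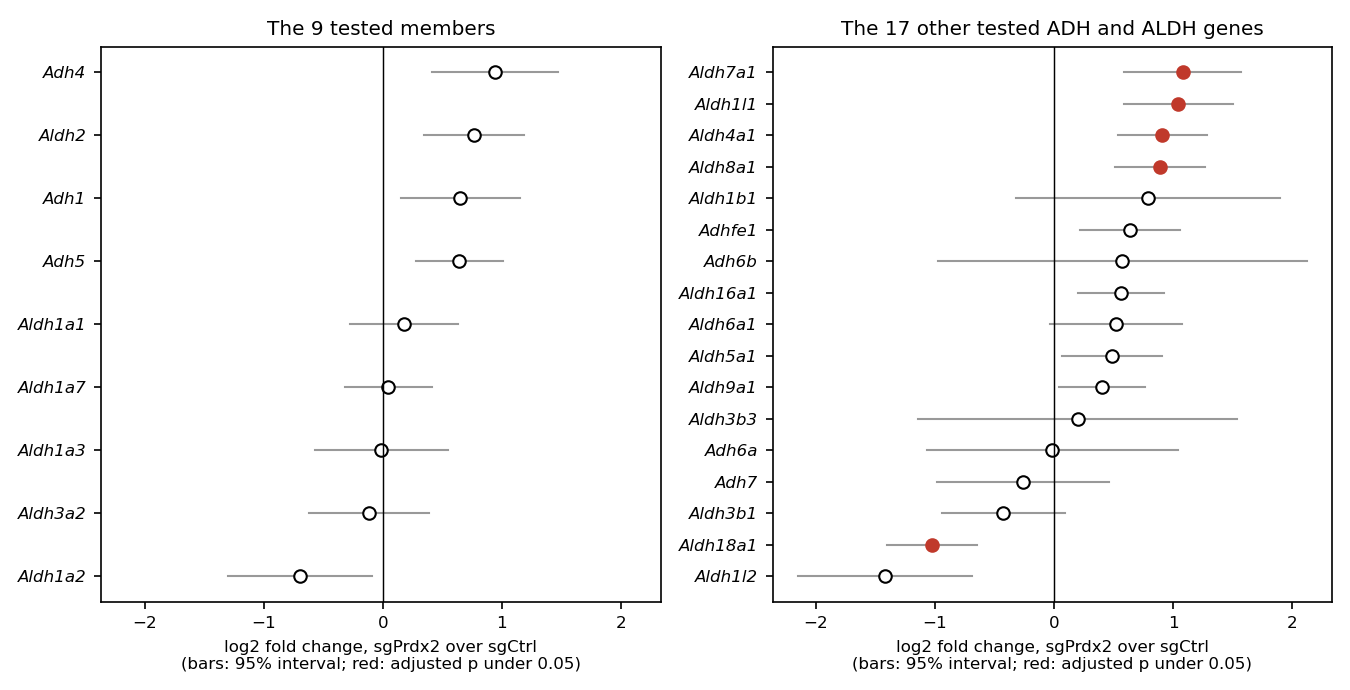
Log2 fold change of sgPrdx2 over sgCtrl livers (points) with its 95% interval (bars) for the 9 tested dehydrogenases (left) and 17 other genes of the ADH and ALDH families (right), with adjusted p under 0.05 in red. No gene is red on the left, and Aldh7a1, Aldh1l1, Aldh4a1 and Aldh8a1 (above 0) and Aldh18a1 (below 0) are red on the right.

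Levels were compared between genes after division by exon length, counted as the union of all annotated exons of each gene. This length was 4937 bases in 21 exon blocks for Aldh1a1 and 2066 bases in 13 blocks for Aldh1a7. Which of the annotated exons these livers use was not tested. The orders and overlaps between genes given here and for the sgPrdx2 livers therefore hold for this length only. In the sgCtrl livers, Adh1 was highest at 789 ± 110 CPM per kb (SD, n = 3), followed by Aldh2 at 324 ± 53.3 and Aldh1a1 at 273 ± 45.1 CPM per kb. Aldh2 and Aldh1a1 were not separate there, with ranges of 274 to 380 and 229 to 319 CPM per kb. Aldh1a7 came next, at 127 ± 18.7 CPM per kb. Aldh3a2, Adh4 and Adh5 followed at 72.4 ± 16.9, 54.6 ± 16.4 and 53.9 ± 2.92 CPM per kb, with overlapping ranges. Aldh1a2 (3.99 ± 1.4 CPM per kb), Aldh1a3 (0.155 ± 0.01) and Aldh3a1 (0.0912 ± 0.0107) closed the list.

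In the sgPrdx2 livers, Adh1 was again first at 1240 ± 301 CPM per kb (SD, n = 3). Aldh2, at 552 ± 63.9 CPM per kb and 479 to 599, now lay above the whole range of Aldh1a1, which was at 309 ± 57.4 and 269 to 375 CPM per kb. Adh4 (105 ± 17.8 CPM per kb) and Adh5 (84.2 ± 12.8) stood before Aldh3a2 (66.9 ± 12.9), which preceded both in sgCtrl livers. The ranges of Adh4 and Aldh3a2 were apart (92.9 to 125 and 54.9 to 80.6 CPM per kb), and that of Adh5 overlapped both (71.7 to 97.2 CPM per kb). Aldh1a7, at 131 ± 11.8 CPM per kb and 118 to 140, overlapped Adh4.

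A ratio of counts of 2 genes in the same liver needs no scaling between libraries. The following ratios were chosen after the values were seen. Aldh2 was counted 1.22, 1.23 and 1.24 times as often as Aldh1a1 in sgCtrl livers 5.1, 7.1 and 7.2, and 1.6, 1.76 and 2.32 times as often in sgPrdx2 livers 1.1, 1.3 and 3.2. The sgCtrl livers were nearly equal and all sgPrdx2 livers lay above them, by 0.60 on the log2 scale (standard error 0.16). The difference was 0.45 to 0.71 when each liver was left out in turn.

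Adh4 stood in a ratio to Aldh1a1 of 0.0498, 0.0676 and 0.0571 in sgCtrl and of 0.0984, 0.0963 and 0.106 in sgPrdx2 livers, a difference of 0.79 on the log2 scale (standard error 0.13). Of 6 members set against Aldh1a1, Aldh2 and Adh4 were the ones without overlap, both higher in sgPrdx2 livers, where 4.76% of all genes were higher and 16.6% lower without overlap. For both, the exact permutation p was 0.1, the smallest possible, and 0.24 after Benjamini-Hochberg adjustment over the 6 ratios. Adh1 and Adh5 differed from Aldh1a1 by 0.46 each on the log2 scale, with overlap (exact permutation p = 0.2 each). The Aldh1a7 to Aldh1a1 ratio was 0.17, 0.192 and 0.225 in sgCtrl and 0.157, 0.174 and 0.209 in sgPrdx2 livers, which overlapped (difference -0.12, standard error 0.17, exact permutation p = 0.6).

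**Figure D3:**
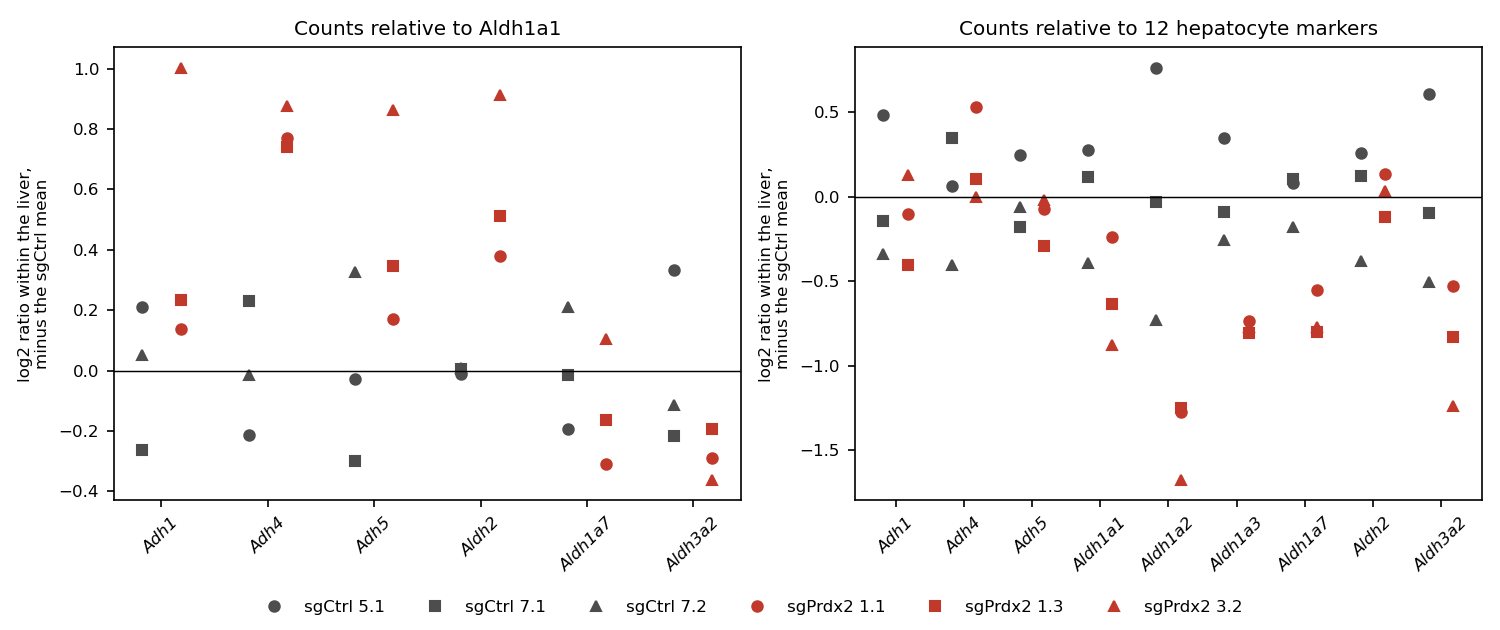
Log2 ratio of the counts of each gene to those of Aldh1a1 (left) or to the geometric mean of 12 hepatocyte markers (right) in each liver, minus the sgCtrl mean, for 3 sgCtrl (grey) and 3 sgPrdx2 (red) livers. On the left Aldh2 and Adh4 are higher in each sgPrdx2 liver, and on the right Aldh1a2, Aldh1a3, Aldh1a7 and Aldh3a2 are lower in each sgPrdx2 liver, with Aldh2 near 0.

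All 12 hepatocyte markers had positive log2 fold changes, with a median of 0.76, and 4 passed the test (33.3%), namely Alb, Apoa1, Apoh and Fgb, which encode secreted plasma proteins, at 0.97, 1.15, 0.97 and 0.83. With housekeeping scaling 10 markers were positive and 2 negative (median 0.38), and of the 4 only Apoa1 passed (adjusted p = 0.0414), against adjusted p of 0.0714, 0.0613 and 0.0964 for Alb, Apoh and Fgb. Their summed level was 90310 to 98690 CPM in sgCtrl and 151600 to 203900 CPM in sgPrdx2 livers.

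Relative to the geometric mean of the 12 hepatocyte markers in the same liver, Aldh2 differed by 0.02 on the log2 scale (standard error 0.21). In these terms Aldh2 stood at 0.882, 0.801 and 0.565 in sgCtrl and at 0.81, 0.677 and 0.754 in sgPrdx2 livers, with full overlap. Adh1, Adh5 and Adh4 differed by -0.13, -0.13 and 0.21 (standard errors 0.29, 0.15 and 0.27), also with overlap. Aldh1a7, Aldh3a2, Aldh1a2 and Aldh1a3 were lower without overlap, by -0.71, -0.87, -1.40 and -0.77 (exact permutation p = 0.1 each, 0.23 after adjustment over the 9 ratios). Aldh1a1 was at -0.59, with overlap (exact permutation p = 0.2). These 4 of 9 stand against 70% of all genes that were lower without overlap relative to hepatocyte markers and 0.658% that were higher, with a median difference of -0.78 over all genes.

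Zones of the liver lobule differ in these enzymes. Of the markers of pericentral hepatocytes, around the central vein, 7 of 8 had positive log2 fold changes (median 0.57), and of the periportal markers, around the portal vein, 7 of 8 (median 1.23). In neither list did a gene pass the edgeR test. The unadjusted p was under 0.05 for 4 and 6 genes, against 4241 of all 17032 genes. DESeq2 called 2 and 4, against 2066 of 14799 genes. The summed level of the pericentral markers was 1563 to 2166 CPM in sgCtrl and 2827 to 3245 CPM in sgPrdx2 livers, and that of the periportal markers 1297 to 2675 and 3906 to 5373 CPM.

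Markers of other cell types were examined in the same way. Of macrophage markers 10 of 10 had negative log2 fold changes (median -0.40) and Mpeg1, a pore-forming protein of macrophages, fell by 0.82 on the log2 scale (adjusted p = 0.0394, edgeR). Without sgCtrl liver 7.2, 5 of these 10 were positive. Of sinusoidal endothelial markers 6 of 7 were negative (median -0.30), and Pecam1, an adhesion protein of endothelium, fell by 0.77 (adjusted p = 0.0423, edgeR). Of the stellate cell and fibroblast markers 10 of 12 were negative (median -0.45), and of the cholangiocyte markers 6 of 7 (median -0.37), with no edgeR call in either. In these 2 lists 7 and 3 genes had an unadjusted p under 0.05, against 4241 of all 17032 genes. DESeq2 called 3 and 1 of them, against 2066 of 14799 genes. The 5 tested mesothelial markers had a median of -0.57 and the 5 oncofetal markers, genes of fetal liver and liver tumors, had a median of 0.88 with 3 positive and 2 negative values, in both lists with no call by edgeR or DESeq2 and no gene at an unadjusted p under 0.05. The summed levels of macrophage, endothelial, cholangiocyte and oncofetal markers were 3259 to 3683, 294.6 to 321.4, 1678 to 1904 and 21.2 to 110.9 CPM in sgCtrl livers, and 2268 to 2977, 210.2 to 308.1, 1261 to 1445 and 34.06 to 121.3 CPM in sgPrdx2 livers. The part of cell composition in the dehydrogenase values was not tested beyond the ratios above.

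The remaining genes of the 2 families were described from a list of 18, of which 17 were tested. Of these 5 passed (29.4%, against 3.33% of all genes), 4 higher and 1 lower in sgPrdx2 livers, and the median log2 fold change was 0.52. Aldh1l1, the cytosolic formyl-tetrahydrofolate dehydrogenase of folate metabolism, rose from 322, 494 and 484 CPM in sgCtrl to 984, 812 and 885 CPM in sgPrdx2 livers (adjusted p = 0.043, log2 fold change 1.04 with standard error 0.20). Its mitochondrial counterpart Aldh1l2 was at 0.777, 1.33 and 1.16 CPM in sgCtrl and 0.319, 0.444 and 0.461 CPM in sgPrdx2 livers, and its log2 fold change of -1.42 did not pass (adjusted p = 0.0541). The difference between the folds of these genes was not tested.

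Enzymes at either end of proline metabolism passed in opposite directions. Aldh4a1, which oxidizes pyrroline carboxylate to glutamate in proline breakdown, was at 136, 195 and 170 CPM in sgCtrl and at 311, 307 and 324 CPM in sgPrdx2 livers (adjusted p = 0.0396, log2 fold change 0.91 with standard error 0.16). Aldh18a1, which makes pyrroline carboxylate from glutamate for proline synthesis, was at 11.5, 11.1 and 15 CPM in sgCtrl and 5.9, 6.34 and 6.23 CPM in sgPrdx2 livers (adjusted p = 0.0358, log2 fold change -1.02 with standard error 0.16). In both genes the sgPrdx2 livers lay close together and far from every sgCtrl liver.

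Aldh7a1, an enzyme of lysine breakdown, rose from 173, 295 and 224 CPM to 526, 423 and 512 CPM (log2 fold change 1.08, adjusted p = 0.0457). Aldh8a1, an enzyme of tryptophan breakdown, rose from 146, 194 and 154 CPM to 329, 270 and 320 CPM (log2 fold change 0.89, adjusted p = 0.0409). With housekeeping scaling, the 4 genes that rose stayed above 0 but did not pass (adjusted p of 0.0824 to 0.107, and 1.99e-05 to 0.162 over all 12 alternatives), whereas Aldh18a1 still passed (adjusted p = 0.0274, in a range of 1.93e-05 to 0.144). Aldh1l2 and Aldh3b1 passed as lower in that fit (adjusted p of 0.0323 and 0.0448), so that the list had 0 genes higher and 3 lower. Without sgPrdx2 liver 3.2, 3 of the 17 passed, and none passed without sgCtrl liver 5.1 or 7.2 or without sgPrdx2 liver 1.1 or 1.3. The same 4 fits gave no call in any list of genes used here.

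Genes that feed or follow these enzymes in ethanol and formaldehyde oxidation were described from a list of 6, with 1 call (16.7%) and a median log2 fold change of 0.65. Cyp2e1, the cytochrome P450 that oxidizes ethanol and activates DEN, rose from 5310, 5050 and 3920 CPM to 9430, 8690 and 9700 CPM (adjusted p = 0.0409, log2 fold change 0.96 with standard error 0.18). With housekeeping scaling Cyp2e1 did not pass (log2 fold change 0.58, adjusted p = 0.0927), and neither did it without any 1 of the 6 livers (adjusted p of 1.87e-06 to 0.157 over 12 alternatives). Acss2, the cytosolic acetyl-CoA synthetase that uses acetate, was at 65.7, 82.3 and 48.3 CPM in sgCtrl and 136, 90.2 and 135 CPM in sgPrdx2 livers (log2 fold change 0.88, adjusted p = 0.0797). Its mitochondrial counterpart Acss1 was at 7.17, 5.16 and 4.43 CPM in sgCtrl and 3.65, 3.66 and 2.7 CPM in sgPrdx2 livers (log2 fold change -0.74, adjusted p = 0.111).

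Of 18 other enzymes that clear carbonyls, 3 passed (16.7%), all higher in sgPrdx2 livers, with a median log2 fold change of 0.33 over the list. Dcxr, a reductase of dicarbonyls and xylulose, rose from 29.7, 45.7 and 40.7 CPM to 101, 80 and 129 CPM (log2 fold change 1.42, adjusted p = 0.0358). Akr7a5, an aldehyde reductase, rose from 95.7, 104 and 99 CPM to 187, 163 and 264 CPM (log2 fold change 1.04, adjusted p = 0.0409). Cbr4, a carbonyl reductase of mitochondria, rose by less, from 26, 28 and 26.5 CPM to 43.7, 38.2 and 41.7 CPM (log2 fold change 0.62, adjusted p = 0.0409). Dcxr and Akr7a5 also passed with housekeeping scaling, and Cbr4 did not (adjusted p = 0.275, the highest over 12 alternatives). In that fit 4 genes of the list passed as lower, namely Akr1b3, Akr1b8, Akr1b10 and Ptgr1 (adjusted p of 0.0336, 0.0294, 0.038 and 0.0325), and 9 were positive and 9 negative with a median of -0.05.

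The retinoid genes, from storage and transport to the receptors, gave 2 calls among 25 tested of 29 (8%), and a median log2 fold change of 0.34. Rdh5, a retinol dehydrogenase, rose from 9.75, 10.3 and 11.9 CPM to 21.8, 18.5 and 27 CPM (log2 fold change 1.08, adjusted p = 0.0358). Rdh7, a retinol and steroid dehydrogenase of liver, rose from 576, 711 and 563 CPM to 1140, 1010 and 1440 CPM (log2 fold change 0.96, adjusted p = 0.0455). Rbp4, the retinol carrier that hepatocytes secrete, had a log2 fold change of 0.84 with an adjusted p of 0.0584. With housekeeping scaling Rdh5 passed and Rdh7 did not (adjusted p of 0.0384 and 0.0758), and 12 retinoid genes were positive and 13 negative, against 20 and 5 with TMM.

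No target of the Ah receptor passed among 8 tested with edgeR, where 1 had an unadjusted p under 0.05, against 4241 of all 17032 genes. DESeq2 called 1, against 2066 of 14799 genes. The median log2 fold change was -0.17. Cyp1b1, a cytochrome P450 also made by mesenchymal cells, had the smallest p, at 14.3, 9.7 and 7.9 CPM in sgCtrl and 5.24, 5.44 and 4.24 CPM in sgPrdx2 livers (log2 fold change -1.09, adjusted p = 0.053). Nqo1, a quinone reductase, and Tiparp, a feedback inhibitor of the receptor, were at -0.74 and -0.24 (adjusted p of 0.219 and 0.333).

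**Figure D4:**
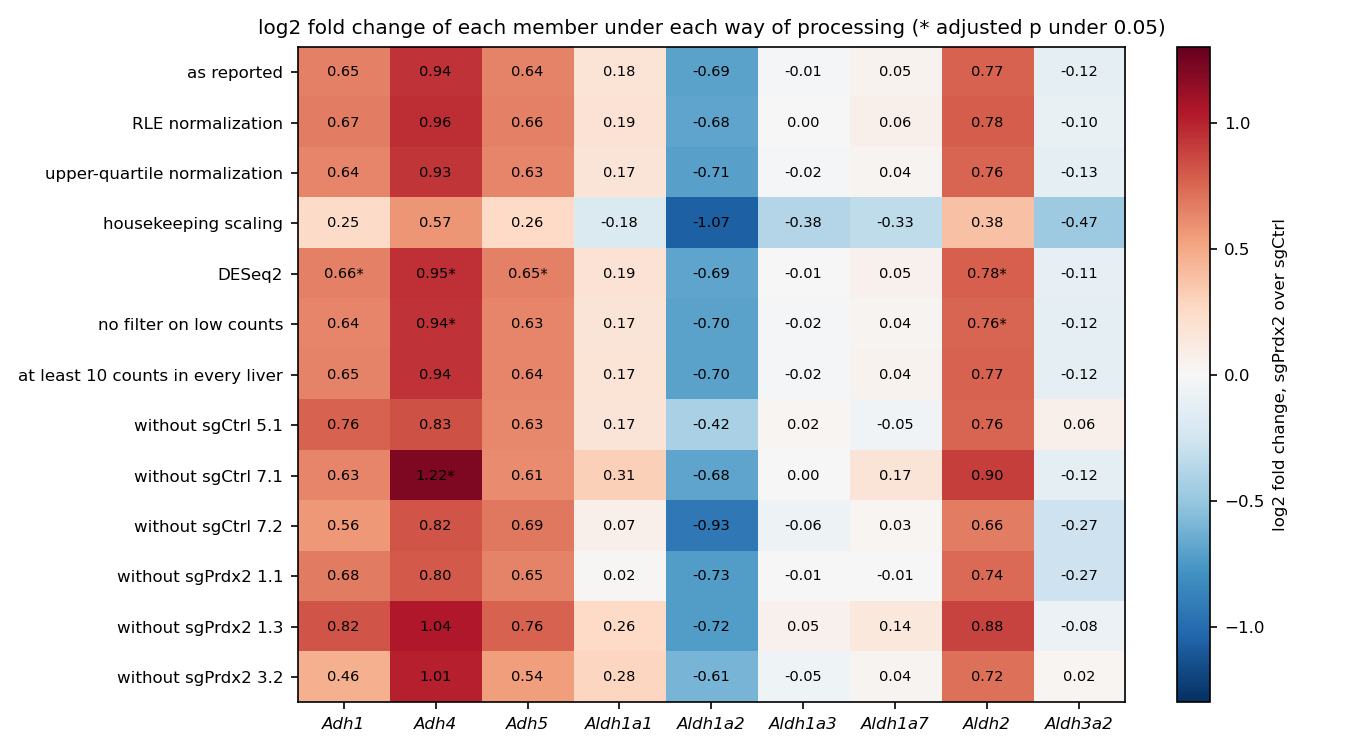
Log2 fold change (sgPrdx2 over sgCtrl, color scale and printed values) of the 9 tested dehydrogenases as reported and under 12 other ways of processing, with a star where the adjusted p was under 0.05. The columns of Adh1, Adh4, Adh5 and Aldh2 are positive throughout, that of Aldh1a2 is negative throughout, and stars stand in 3 settings, DESeq2, no filter on low counts and the fit without sgCtrl 7.1.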

How the data were processed

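RNA-Seq counts of 6 mouse livers (3 sgCtrl, 3 sgPrdx2, separate mice grouped by their labels) were used. The authors deposited whole-number read counts per gene without normalization. The submitters' processing notes name HISAT2, HTSeq and DESeq2 and the build GRCm38. Annotation release and strandedness are not given in the sources used here. A second deposited table, of the authors' DESeq2 comparison (mean normalized signal, log2 fold change, standard error, Wald statistic, p and adjusted p), was not used. In R 4.3.3, genes were filtered with filterByExpr (minimum count 10), normalized by TMM and tested with edgeR 4.0.16 (glmQLFit, glmQLFTest, 6 livers, no covariate). Adjusted p under 0.05 was the threshold. The biological coefficient of variation was 0.213, and standard errors were derived from the fold change and its F statistic. A count of 3 equals 0.0555 to 0.0921 CPM, and count-based limits cover counting error only. The pipeline was tested on simulated data.

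Exon lengths, positions and shared 50-base stretches came from GENCODE for GRCm38, and promoters from RefSeq. Alternatives were RLE, upper-quartile and housekeeping scaling (Atp5b, Bag6, Cox8a, Hint1, Hnrnpa2b1, Ndufa2), DESeq2 1.42.0, no filter, at least 10 counts in every liver, leaving out each liver, and adjusted p under 0.01. Members and the 14 gene lists were chosen with earlier results of these data known. The text names all members and, of each list of enzymes or targets, the called genes, filled to 3 by smallest p, and of each cell type list up to 3 called genes. Alb, Apoa1, Apoh and Fgb are all 4 called hepatocyte markers, and Aldh1l2, Aldh3b1, Akr1b3, Akr1b8, Akr1b10 and Ptgr1 were named after their values were seen. The within-liver ratios and the choice of promoters shown were also made after values were seen, as was the choice of stellate cell and fibroblast markers named.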

Additional observations from a re-analysis of the deposited data

How the results depend on the processing

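Over all genes, the 567 calls became 989 with housekeeping scaling (70 higher, 919 lower), 2066 with DESeq2, 1128 without a filter and 0 at an adjusted p under 0.01, and ranged from 0 to 619 when each liver was left out. They were 0 without sgCtrl liver 5.1 or 7.2 or sgPrdx2 liver 1.1 or 1.3, where 3114 to 3993 genes had an unadjusted p under 0.05, 394 without sgCtrl liver 7.1 and 619 without sgPrdx2 liver 3.2. Of the 10 dehydrogenases, DESeq2 called 4 and the fit without a filter 2 (Adh4 and Aldh2), and 0 to 1 were called when each liver was left out. The cause of these differences was not tested.

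Signs turned only for genes close to 0. With housekeeping scaling Aldh1a1 was at -0.18 and Aldh1a7 at -0.33, and with RLE Aldh1a3 was at 0.0013. Leaving out each liver gave -0.064 to 0.055 for Aldh1a3, -0.046 to 0.17 for Aldh1a7 and -0.27 to 0.065 for Aldh3a2. Of the 108 member values under alternatives, 91 kept their sign and their side of the threshold and 7 passed it anew. No paired analysis was possible because the groups share no mouse numbers. Adh5 did not pass at a fold of 1.56 (95% interval 1.22 to 2.01), whereas Cbr4 passed at a fold of 1.53 (1.28 to 1.84), with 3 livers a group.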
